A study of Mus musculus with 2 samples.

Results

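The neutrophils described here are 466 cell barcodes of 39580 that passed quality limits in a single-cell RNA-seq study of the mouse cochlea after noise. A barcode was counted as a neutrophil when it held at least 10 unique molecular identifiers (UMIs, each standing for 1 captured mRNA molecule) of S100a8 plus S100a9 and at least 1 UMI of Retnlg, Csf3r, Cxcr2, Mmp8, Mmp9, Ngp or Camp. Quality limits were at least 500 UMIs per barcode and at most 20% mitochondrial UMIs. The members were chosen by the UMI counts of these 9 genes, so their levels are given as a description only.

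The 2 groups came from the same wild-type C57BL/6J mice, aged 4 to 6 weeks, with n = 5 in the labels and 1 library per group. In the Drug-NIHL group the cochleae received a drug, called VPA in the series title, at 90 mg/ml before noise. The NIHL group (noise only) consisted of the opposite ears, which got no drug. All ears were exposed to noise of 105 dB in the 8 to 16 kHz band for 2 hours, and the sensory epithelium was dissected 2 days later, so the groups share the noise and lack an unexposed control. With 1 library per group no test over samples could be run, and the intervals below are 95% intervals for counting error alone. The question the comparison addresses is how drug-pretreated, noise-exposed cochleae differ in expression from cochleae exposed to noise only.

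Neutrophils are short-lived phagocytes that mature in bone marrow and reach injured tissue through blood. Their precursors make granule proteins in a fixed order: azurophil granule proteases such as elastase and myeloperoxidase come first, specific granule proteins such as lactoferrin and lipocalin 2 next, and gelatinase granule proteins such as Mmp9 last. Mature cells stop making most granule mRNAs, express the chemokine receptor Cxcr2 and the G-CSF receptor Csf3r, and on activation transcribe Il1b and chemokine genes.

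The Drug-NIHL library held 39939170 UMIs in 21773 barcodes and the NIHL library 38380393 UMIs in 18545 barcodes. Neutrophils had a median of 2051 UMIs in the Drug-NIHL library and 1350.5 in the NIHL library, against medians of 1227 and 1188 in the other barcodes of the same libraries. S100a8 plus S100a9 ranged over 10 to 2346 UMIs per neutrophil (median 476.5) in the Drug-NIHL library and 10 to 2674 (median 336.5) in the NIHL library. Just inside the limit, at 10 to 19 such UMIs, lay 14 Drug-NIHL and 2 NIHL barcodes. Just outside it, with 5 to 9 such UMIs and at least 1 of the 7 further genes, lay 8 Drug-NIHL and 2 NIHL barcodes. The libraries shared 111 barcode sequences, of which 1 was a neutrophil in the Drug-NIHL library and 0 in the NIHL library.

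Genes that the membership rule did not use matched the label in both libraries. Ly6g, a surface protein of mouse neutrophils, had 161 UMIs in Drug-NIHL neutrophils and 72 in NIHL neutrophils, and 0 UMIs in all other barcodes of either library. Wfdc21, a secreted whey acidic protein family member, reached 3328 CPM (UMI counts of the summed cells, scaled to the same total in every sum) in Drug-NIHL neutrophils and 2088 CPM in NIHL neutrophils, against 2.17 and 0.266 CPM in the other barcodes. Of the 6 eosinophil, basophil and mast cell markers, Epx, Prg2, Ear6, Mcpt8 and Cpa3 had 0 UMIs in neutrophils of both libraries, and Siglecf had 3 UMIs in Drug-NIHL and 2 in NIHL neutrophils. The 6 monocyte markers, none at 0, summed to 700 CPM in Drug-NIHL and 890 CPM in NIHL neutrophils, against 117 and 99.7 CPM in the other barcodes. Most of that sum was Ly6c2, with 605 and 784 CPM in neutrophils, while Ccr2 had 7.62 and 22.5 CPM. The 6 macrophage markers summed to 174 CPM in Drug-NIHL neutrophils and 659 CPM in NIHL neutrophils (none at 0), against 669 and 719 CPM in the other barcodes. The 5 osteoblast markers summed to 127 and 1484 CPM in neutrophils and to 908 and 1813 CPM in the other barcodes. Of the 400 UMIs of the osteoblast marker Bglap in NIHL neutrophils, 394 lay in 1 barcode.

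Transcripts of cochlear cells were present in many neutrophil barcodes. The 6 Schwann cell markers summed to 4248 CPM in Drug-NIHL neutrophils and 3148 CPM in NIHL neutrophils, against 8877 and 12402 CPM in the other barcodes, and none of the 6 was at 0. At least 3 UMIs of another cell type's markers occurred in 191 Drug-NIHL neutrophils (63.7%) and 88 NIHL neutrophils (53.0%). The doublet caller Scrublet marked 85 Drug-NIHL neutrophils (28.3%) and 30 NIHL neutrophils (18.1%). The part of free RNA and of doublets in the results below was not tested beyond the values given beside them.

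Neutrophil barcodes were a larger share of the Drug-NIHL library. They were 300 of 21307 passing Drug-NIHL barcodes (1.41%, exact binomial interval 1.25 to 1.58%) and 166 of 18273 passing NIHL barcodes (0.908%, 0.776 to 1.06%), a ratio of 1.55 (1.28 to 1.88). Among barcodes free of 3 or more UMIs of another type's markers, 109 Drug-NIHL and 78 NIHL neutrophils remained, and the ratio was 1.20 with an interval of 0.888 to 1.62 that includes 1. Requiring at least 50 UMIs of S100a8 plus S100a9 left 265 Drug-NIHL and 164 NIHL neutrophils, a ratio of 1.39 (1.14 to 1.69). Dissociation can also set such a share, and its part was not tested.

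The larger difference lay in granule transcripts. Ngp (neutrophilic granule protein), Camp (the cathelicidin precursor) and Ltf (lactoferrin) divided the cells by maturation: at least 5 UMIs of the 3 together, and more than those of Cxcr2 plus Csf3r, was called immature, and at least 1 receptor UMI with no more granule UMIs than that was called mature. Immature barcodes were 184 of 300 Drug-NIHL neutrophils (61.3%, 55.6 to 66.9%) and 55 of 166 NIHL neutrophils (33.1%, 26.0 to 40.8%), a ratio of 1.85 (1.36 to 2.55). Mature barcodes were 51 of 300 (17%) in the Drug-NIHL library and 64 of 166 (38.6%) in the NIHL library. The mature class holds 1 barcode in each library with 100 or more azurophil UMIs (237 in the Drug-NIHL and 468 in the NIHL library), which goes against its name. The remaining 65 Drug-NIHL and 47 NIHL barcodes had too few UMIs of both kinds to be assigned. Per passing barcode, immature cells were 2.87 times as frequent in the Drug-NIHL library (2.11 to 3.95), while the ratio for mature cells was 0.683 (0.464 to 1.003).

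The immature classes differed in make-up between the libraries. With 100 or more granule UMIs there were 113 Drug-NIHL barcodes (37.7%) and 13 NIHL barcodes (7.83%), a ratio of 4.81 (2.70 to 9.31). Near the limit, at 5 to 19 granule UMIs, each library had 25 barcodes, and at 1 to 4 each had 30. After every neutrophil was thinned to 500 UMIs, which removes the difference in depth, 53.7% of Drug-NIHL and 18.7% of NIHL neutrophils were immature, a ratio of 2.87 (1.95 to 4.37). Among barcodes without 3 UMIs of another type's markers the ratio was 2.46 (1.53 to 4.10).

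The granule genes behind this division lie close together. Ngp, Camp and Ltf all map to mouse chromosome 9 within 1.2 megabases (RefSeq, GRCm38.p6). Their promoters are shown because the 3 genes divide the neutrophils, each as the 250 bases before the transcription start on the gene's strand. Capitals mark the 8-letter string TTGCNNAA or its reverse complement TTNNGCAA, which hold a core bound by C/EBP factors, the family of the granule regulator Cebpe. The window of Ngp is chr9:110419558-110419807 on the plus strand, that of Ltf chr9:111019042-111019291 on the plus strand and that of Camp chr9:109849457-109849706 on the minus strand.
Ngp: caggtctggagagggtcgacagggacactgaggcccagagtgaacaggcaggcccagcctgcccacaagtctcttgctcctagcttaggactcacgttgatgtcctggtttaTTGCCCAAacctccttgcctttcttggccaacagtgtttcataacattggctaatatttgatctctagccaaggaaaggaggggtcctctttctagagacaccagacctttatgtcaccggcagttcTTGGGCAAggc
Ltf: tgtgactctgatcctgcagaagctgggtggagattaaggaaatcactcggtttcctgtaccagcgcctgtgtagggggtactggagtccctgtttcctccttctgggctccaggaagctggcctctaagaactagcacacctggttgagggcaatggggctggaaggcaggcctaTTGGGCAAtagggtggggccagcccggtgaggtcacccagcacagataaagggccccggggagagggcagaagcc
Camp: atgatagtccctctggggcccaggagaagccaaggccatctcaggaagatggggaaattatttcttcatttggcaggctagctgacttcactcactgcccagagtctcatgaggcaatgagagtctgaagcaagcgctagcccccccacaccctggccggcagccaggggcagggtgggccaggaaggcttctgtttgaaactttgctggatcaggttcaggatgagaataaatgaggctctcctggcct
The string began 138 and 11 bases before the start of Ngp and 75 bases before that of Ltf, and it did not occur in this window of Camp. It was found in 4 of the 10 specific granule genes with a promoter in the RefSeq table (Lcn2, Ltf, Mmp8 and Ngp), in 0 of 7 azurophil genes, and in 9.56% of all 32851 promoters of that length. A match to these letters is a description and shows no binding. Cebpe itself had 257 CPM in Drug-NIHL neutrophils and 199 CPM in NIHL neutrophils, a ratio of 1.29 (1.01 to 1.66).

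Azurophil granule transcripts went the other way among neutrophil barcodes. A separate set of barcodes carried at least 100 UMIs of Elane (elastase), Mpo (myeloperoxidase), Prtn3 (proteinase 3) and Ctsg (cathepsin G), a limit chosen after the values were seen. These azurophil-rich barcodes were 7 of 300 Drug-NIHL neutrophils (2.33%, 0.943 to 4.75%) and 17 of 166 NIHL neutrophils (10.2%, 6.08 to 15.9%), a ratio of 0.228 (0.0799 to 0.578). Elane had 13862 CPM in the Drug-NIHL and 13854 CPM in the NIHL barcodes of this class, and Prtn3 had 11606 and 11786 CPM, as a description, since these genes define it. Between 3 and 99 azurophil UMIs lay 21 Drug-NIHL barcodes and 0 NIHL barcodes. A count of 0 of 166 allows a share of up to 2.20% (upper limit of the exact interval). With Scrublet's doublets removed, 2 Drug-NIHL and 15 NIHL azurophil-rich barcodes remained.

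**Figure D1:**
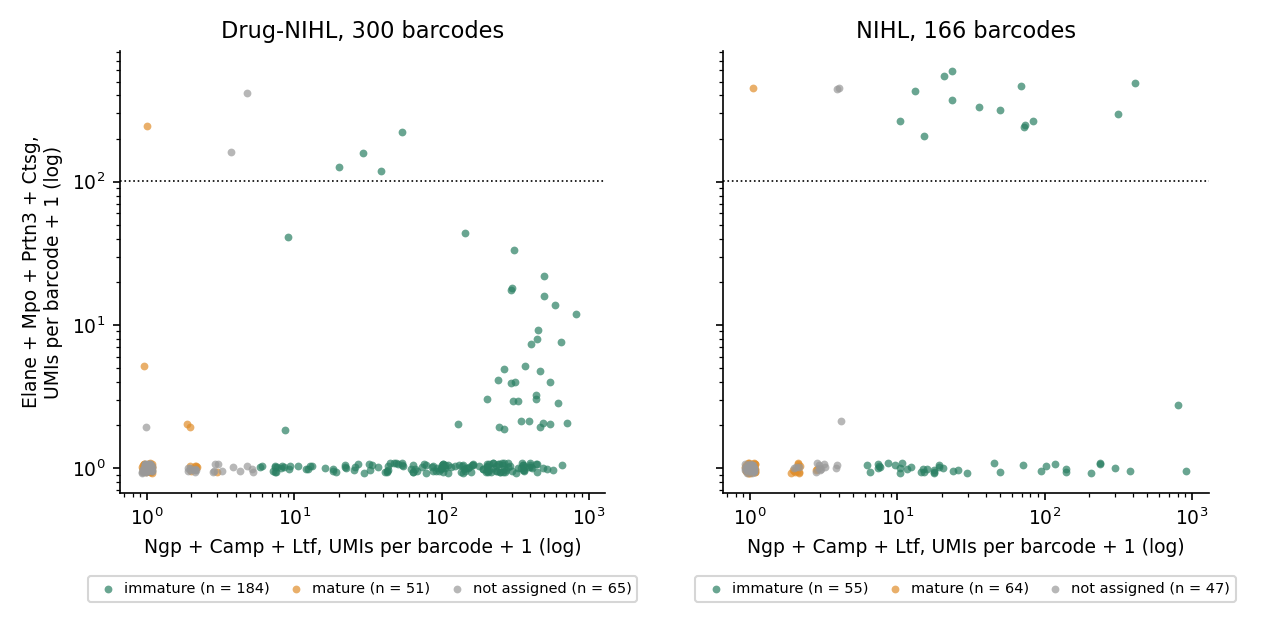
Each point is 1 neutrophil barcode, with UMIs of Ngp, Camp and Ltf plus 1 on the x axis and UMIs of Elane, Mpo, Prtn3 and Ctsg plus 1 on the y axis, both on log scales with a small random shift, and colours for stage. The dotted line marks 100 azurophil UMIs: 7 Drug-NIHL and 17 NIHL barcodes lie above it, and the 113 Drug-NIHL barcodes with 100 or more specific granule UMIs and under 100 azurophil UMIs fill the lower right of the left panel, against 11 in the NIHL panel.

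Ordered by granule UMIs, both libraries gave much the same succession of transcripts. The order ran from azurophil-rich barcodes through those with 100 or more, 20 to 99, 5 to 19 and 0 to 4 specific granule UMIs, and it held 7, 113, 43, 24 and 113 Drug-NIHL barcodes and 17, 11, 8, 22 and 108 NIHL barcodes. Classes of fewer than 20 barcodes are thin. Since all these genes come from the cells that were ordered, the succession is a description. Fcnb, a ficolin of early precursors, was highest in the azurophil-rich class in both libraries, at 802 CPM in Drug-NIHL cells and 1064 CPM in NIHL cells. Chil3, a chitinase-like protein of specific granules, peaked in the next class at 5307 CPM in Drug-NIHL cells and 5205 CPM in NIHL cells. In the last class it had 231 and 5.13 CPM.

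Later in the order the membership genes Retnlg, a resistin-like protein of mature neutrophils, and Mmp8, the neutrophil collagenase, were higher. Retnlg was highest at 5 to 19 granule UMIs in Drug-NIHL cells (26748 CPM) and at 20 to 99 in NIHL cells (31722 CPM). Il1b, the inflammatory cytokine interleukin 1 beta, was highest at 0 to 4 granule UMIs, with 2240 CPM in Drug-NIHL cells and 2087 CPM in NIHL cells, and it was not detected in azurophil-rich cells of either library. Cxcl2, a chemokine that attracts neutrophils, also peaked there, with 6785 CPM in Drug-NIHL cells and 3445 CPM in NIHL cells. Nlrp3, the inflammasome sensor, had 296 CPM in Drug-NIHL cells and 200 CPM in NIHL cells of that class.

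**Figure D2:**
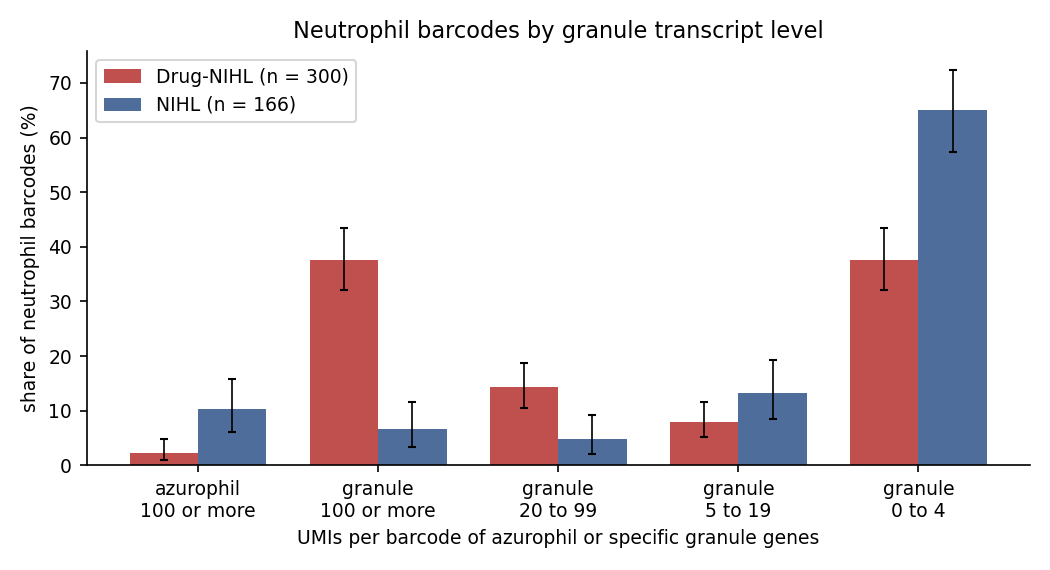
Bars give the share of neutrophil barcodes of each library (y axis, percent) in 5 classes of granule UMIs per barcode (x axis), with exact 95% binomial intervals. The class of 100 or more specific granule UMIs holds 37.7% of Drug-NIHL (n = 300) and 6.63% of NIHL neutrophils (n = 166), and the class of 0 to 4 holds 37.7% and 65.1%.

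**Figure D3:**
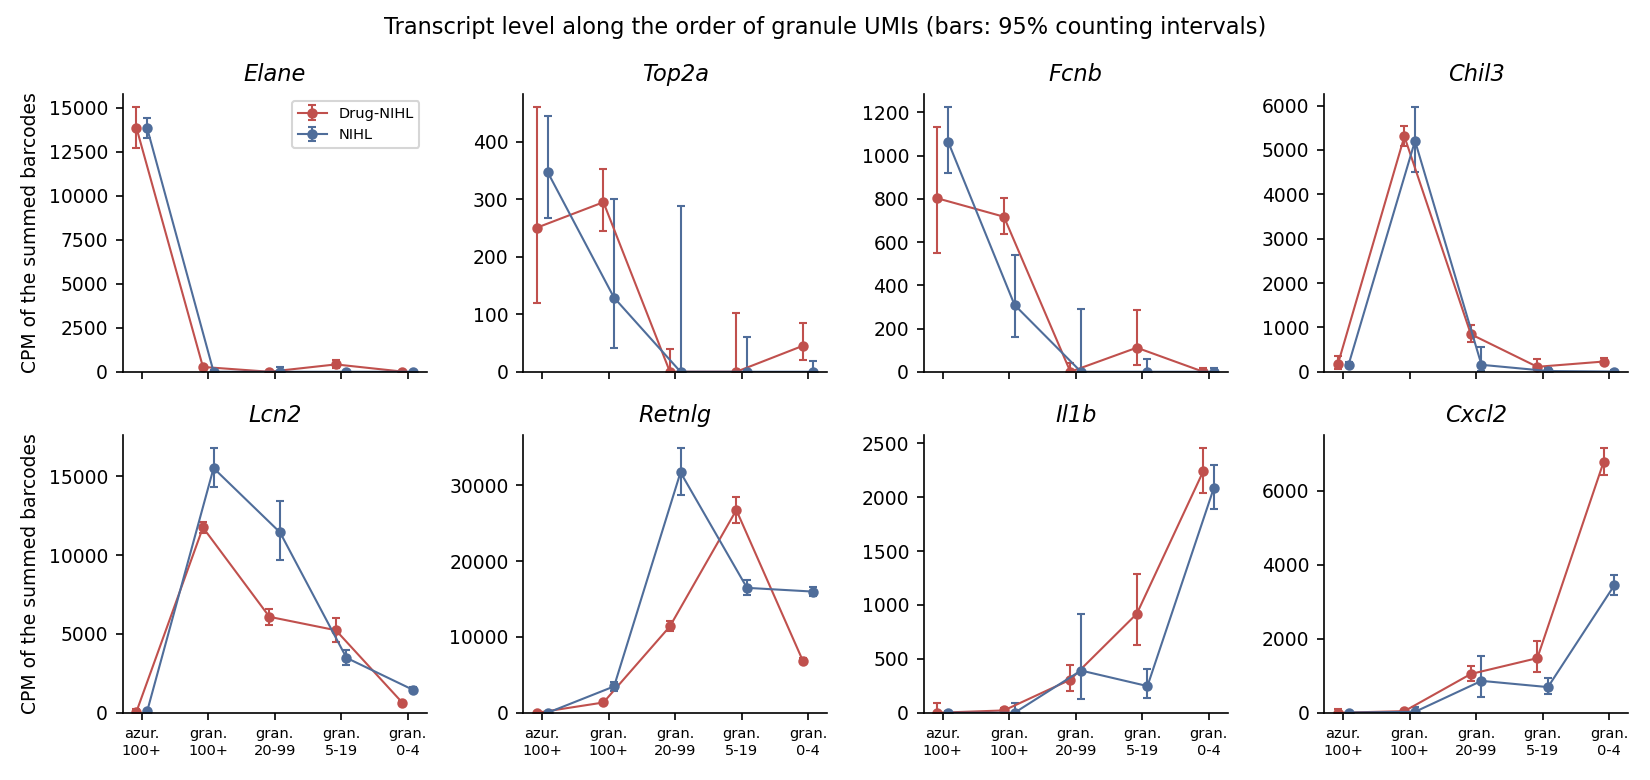
Each panel shows 1 gene's CPM in the summed barcodes (y axis, linear from 0) over the 5 classes of azurophil (azur.) and specific granule (gran.) UMIs per barcode (x axis), with 95% Poisson counting intervals. The place of the peak is the same class in both libraries for Elane, Fcnb, Chil3, Lcn2, Il1b and Cxcl2, while Top2a and Retnlg peak one class apart.

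Transcripts of dividing cells sat mainly in the first and second of these classes. The cell cycle genes counted here were Mki67, Top2a, Birc5, Cdk1, Ccnb1, Ccnb2, Ccna2 and Ube2c. At least 3 UMIs of these genes together were found in 58 of 300 Drug-NIHL neutrophils (19.3%) and 19 of 166 NIHL neutrophils (11.4%). Among the other barcodes the shares were 0.976% and 0.845%. In NIHL cells, 16 of the 17 azurophil-rich barcodes had them and 2 of 11 with 100 or more specific granule UMIs. In Drug-NIHL cells, 3 of 7 azurophil-rich barcodes had them and 52 of 113 with 100 or more. Shares of this kind depend on depth, and the azurophil-rich barcodes had median totals of 6193 UMIs in Drug-NIHL cells and 10094 in NIHL cells. Top2a, a topoisomerase of replicating cells, had 295 CPM in Drug-NIHL cells and 129 CPM (5 UMIs) in NIHL cells of the class with 100 or more specific granule UMIs. In azurophil-rich cells it had 251 CPM in the Drug-NIHL library and 347 CPM in the NIHL library.

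Stages were also compared within each library, as a description. Immature cells were at least 1.5 times higher in 15.3% of 3598 genes and lower in 42.7% in the Drug-NIHL library, and higher in 24.7% of 2532 genes and lower in 30.1% in the NIHL library. Besides the granule genes, Hmgn2, a chromatin protein, had 889 CPM in immature and 92.5 CPM in mature Drug-NIHL cells, and 1233 and 118 CPM in NIHL cells. Fcnb had 587 CPM in immature Drug-NIHL cells and 0 UMIs in mature ones, with 739 CPM in immature and 39.4 CPM in mature NIHL cells, where all UMIs came from the 1 azurophil-rich barcode of the mature class. Mature cells were higher in Il1b, at 126 CPM in immature and 2756 CPM in mature Drug-NIHL cells, and at 80.3 and 2177 CPM in NIHL cells. Ccl6, a CC chemokine of myeloid cells, had 44.2 CPM in immature and 679 CPM in mature Drug-NIHL cells, and 32.1 and 962 CPM in NIHL cells. Acod1, which makes itaconate, Ptgs2, the inducible cyclooxygenase, and Clec4d, a C-type lectin receptor, were also higher in mature cells of both libraries.

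Over all neutrophils together, the specific granule genes were higher and the azurophil genes lower in the Drug-NIHL library. Of 6349 genes with at least 20 UMIs in the 2 sums, 624 (9.83%) were at least 1.5 times higher in Drug-NIHL neutrophils and 1548 (24.4%) at least 1.5 times lower. The median log2 ratio was -0.22, and with TMM scaling, which corrects for a few dominant genes, the split was 1066 higher and 889 lower. Ratios below are unscaled.

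Of 11 specific granule genes measured, 9 were higher in Drug-NIHL neutrophils and 0 were lower, with a median log2 ratio of 1.09. Chil3 had 2350 UMIs (2986 CPM) in Drug-NIHL neutrophils and 235 UMIs (481 CPM) in NIHL neutrophils, a ratio of 6.21 (5.43 to 7.13). Lcn2, lipocalin 2, which withholds iron from bacteria, had 7362 CPM in Drug-NIHL and 2577 CPM in NIHL neutrophils (ratio 2.86, 2.69 to 3.04). Lyz2, a lysozyme, had 5534 and 2814 CPM (1.97, 1.85 to 2.09). Cybb, the catalytic subunit of the NADPH oxidase, had 750 CPM in Drug-NIHL and 352 CPM in NIHL neutrophils (2.13, 1.79 to 2.54). Ngp, Camp and Ltf, which divide the stages, had ratios of 4.50, 4.01 and 4.02. The list contains these genes, so its count is not independent of the division.

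Of the 8 azurophil members, 7 were lower in Drug-NIHL neutrophils and 0 higher, and the median log2 ratio was -2.11. Elane had 684 UMIs (869 CPM) in Drug-NIHL neutrophils and 2512 UMIs (5142 CPM) in NIHL neutrophils, a ratio of 0.169 (0.155 to 0.184). Mpo had 313 CPM in Drug-NIHL and 2006 CPM in NIHL neutrophils (0.156, 0.135 to 0.179). Ms4a3, a membrane protein of granulocyte precursors, had 170 and 549 CPM (0.310, 0.250 to 0.383). These values come from few cells: without the azurophil-rich barcodes, 7 in the Drug-NIHL and 17 in the NIHL library, the ratios were above 1 at 53.5 for Prtn3 (9.43 to 2128) and 5.35 for Ms4a3 (2.35 to 15.0), and the list median was 2.31. Ctsg was then too low to call, with 7 and 2 UMIs and a ratio of 1.44 (0.274 to 14.2). Elane was then at 0 UMIs in NIHL neutrophils.

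Other genes with large ratios in this direction were Nkg7, Plac8, Calr and Myb. Nkg7, a granule protein of cytotoxic cells, had 100 CPM in Drug-NIHL and 379 CPM in NIHL neutrophils (0.265, 0.201 to 0.347). Plac8 had 338 and 1095 CPM (0.309, 0.265 to 0.358), and Calr, the chaperone calreticulin, had 117 and 377 CPM (0.310, 0.239 to 0.401). Myb, a transcription factor of progenitors, had 28.0 CPM in Drug-NIHL and 88.0 CPM in NIHL neutrophils (0.318, 0.181 to 0.543). Nkg7 and Plac8 were above 1 without the azurophil-rich barcodes, at 4.22 and 2.22.

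Several of the higher genes outside the granule list were of low count. Inhba, a subunit of activins, had 47 UMIs in Drug-NIHL and 4 in NIHL neutrophils (ratio 7.29, 2.67 to 27.9), with all 4 in 1 barcode. Krt81, a hair keratin gene, had 26 UMIs and 1 UMI (16.1, 2.65 to 662). E2f2, a cell cycle transcription factor, had 31 and 4 UMIs (4.81, 1.70 to 18.8), and Nfkb2, an NF-kB subunit, had 21 and 2 UMIs (6.52, 1.59 to 57.3). Cxcl3, a neutrophil-attracting chemokine, had 28 UMIs in Drug-NIHL and 2 in NIHL neutrophils (8.69, 2.19 to 75.3), and its ratio was 0.328 among barcodes without 3 UMIs of another type's markers.

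**Figure D4:**
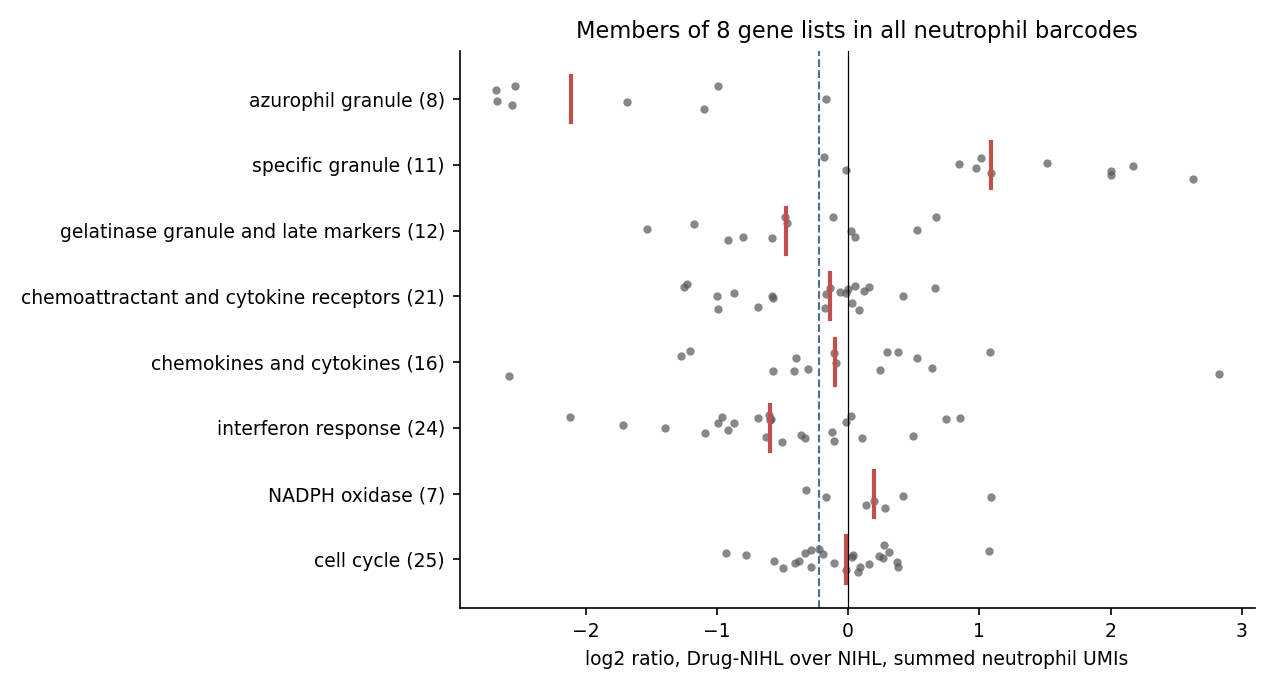
Grey points are genes of 8 lists (number measured in brackets), placed by the log2 ratio of Drug-NIHL over NIHL in all neutrophils. The red bar is the list median and the dashed line the median of all 6349 genes (-0.22). Specific granule genes lie to the right (median 1.09) and azurophil genes to the left (median -2.11).

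Late maturation genes and receptors had medians closer to that of all genes than the specific and azurophil granule lists did. Of 12 gelatinase granule and late markers, 1 was higher and 4 (33.3%) were lower in Drug-NIHL neutrophils. Their median log2 ratio was -0.47, beside -0.22 for all genes. Stfa2l1, a stefin of mature neutrophils, had 40.7 CPM in Drug-NIHL and 119 CPM in NIHL neutrophils (0.343, 0.215 to 0.536). Of 21 receptors, 1 was higher and 6 (28.6%) were lower, beside 24.4% of all genes, and the 6 include Cxcr2 and Csf3r of the membership rule. The receptor median log2 ratio was -0.14. Ifngr1, a subunit of the interferon gamma receptor, had 78.8 and 188 CPM (0.418, 0.298 to 0.584). Tlr2, a receptor for bacterial lipoproteins, had 33.0 and 77.8 CPM (0.425, 0.248 to 0.718). Of 7 NADPH oxidase subunits only Cybb passed 1.5. Of a longer list of 25 cell cycle genes, 1 (4%) was higher and 2 (8%) were lower, beside 9.83% and 24.4% of all genes.

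Chemokine and cytokine genes were mixed, with 3 of 16 (18.8%) higher and 3 (18.8%) lower, beside 9.83% and 24.4% of all genes. Ccl4, a chemokine for monocytes and lymphocytes, had 251 UMIs (319 CPM) in Drug-NIHL and 100 UMIs (205 CPM) in NIHL neutrophils, a ratio of 1.56 (1.23 to 1.98). A single NIHL barcode held 35% of the UMIs in that library, and the ratio was 0.493 among barcodes with at least 50 UMIs of S100a8 plus S100a9. Ccl3, its relative, had a ratio of 2.15 (1.35 to 3.54) and of 0.611 at that limit. Il1b had 658 CPM in Drug-NIHL and 874 CPM in NIHL neutrophils (0.753, 0.661 to 0.858), and Cxcl2 had 1937 and 1488 CPM (1.30, 1.19 to 1.42). Ccl6 had 184 and 446 CPM (0.413, 0.332 to 0.512).

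Many interferon-response genes were lower. Of 24 measured, 13 (54.2%) were lower, beside 24.4% of all genes, and 2 were higher, with a median log2 ratio of -0.59 against -0.22 for all genes. Irf7, a transcription factor that amplifies type I interferon, had 6 UMIs in Drug-NIHL and 17 UMIs in NIHL neutrophils (0.219, 0.0707 to 0.582). Trim30a, an inducible ubiquitin ligase, had 11 and 23 UMIs (0.297, 0.131 to 0.634). Ifitm1, an antiviral membrane protein, had 117 CPM in Drug-NIHL and 233 CPM in NIHL neutrophils (0.501, 0.376 to 0.665). Ifitm6, a relative, was higher, with 959 CPM in Drug-NIHL and 530 CPM in NIHL neutrophils (1.81, 1.57 to 2.09), and in immature cells without azurophil-rich barcodes its ratio was 0.838 (0.710 to 0.994).

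Since the libraries differ in stage, genes were also compared within stages. In mature barcodes, 278 of 1685 genes (16.5%) were higher and 344 (20.4%) lower in Drug-NIHL cells. Of 12 interferon-response genes 6 were lower there and 0 higher, with a median log2 ratio of -0.45. Lcn2 had 442 CPM in Drug-NIHL and 1317 CPM in NIHL mature cells (0.336, 0.234 to 0.472), and Cxcl2 had 5758 and 3684 CPM (1.56, 1.38 to 1.77). Mature barcodes held a median of 82 UMIs of S100a8 plus S100a9 in the Drug-NIHL and 269.5 in the NIHL library, so the classes differ in the genes that chose them. Median mitochondrial shares there were 4.74% and 2.43%, and all 11 mitochondrially encoded genes were higher in Drug-NIHL cells, with ratios of 1.68 to 2.53. At least 3 UMIs of another type's markers occurred in 72.5% of Drug-NIHL and 51.6% of NIHL mature barcodes. Among neutrophils with an S100 share of at least 10% or rich in azurophil UMIs, 23 Drug-NIHL and 54 NIHL mature barcodes remained. The part of these differences in the mature-cell values was not tested.

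In all immature barcodes, 521 of 4157 genes (12.5%) were higher and 1331 (32%) lower in Drug-NIHL cells. The interferon-response list stood the other way there, with 7 of 12 higher and 0 lower, against 1 higher and 3 lower of 11 without the azurophil-rich barcodes. Azurophil genes were lower in 7 of 7 and cell cycle genes in 7 of 25, with 1 higher.

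In immature cells without the azurophil-rich barcodes, 180 in the Drug-NIHL and 41 in the NIHL library, 704 of 3354 genes (21%) were higher and 862 (25.7%) lower in Drug-NIHL cells. Of 11 specific granule genes 3 were then higher and 1 was lower, with a median log2 ratio of 0.22. The list includes Ngp, Camp and Ltf of the stage rule and Mmp8 of the membership rule, so this count is a description. Lcn2 had 10342 CPM in Drug-NIHL and 8549 CPM in NIHL cells (1.21, 1.13 to 1.30), and Cybb had a ratio of 1.02 (0.830 to 1.26). Chil3 stayed higher, at 4196 and 1827 CPM (2.30, 1.99 to 2.66), with 40.0% of the NIHL UMIs in 1 barcode.

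Cell cycle and late genes differed within this class too. Of 22 cell cycle genes 18 (81.8%) were higher and 0 lower in Drug-NIHL cells, beside 21% and 25.7% of all genes. The median log2 ratio was 0.93, and 8 of the 22 had an interval above 1. At least 3 UMIs of the cell cycle genes counted above were found in 52 of 180 Drug-NIHL and 2 of 41 NIHL barcodes. Mki67, a proliferation marker, had 139 UMIs (254 CPM) in Drug-NIHL cells and 7 UMIs (62.4 CPM) in NIHL cells, a ratio of 4.07 (1.92 to 10.3), with 71.4% of the NIHL UMIs in 1 barcode. H2afz, a histone variant, had 1832 and 1025 CPM (1.79, 1.47 to 2.19). Of 9 late genes, 6 (66.7%) were lower and 0 higher, beside 25.7% and 21% of all genes. Retnlg and Mmp9 of the membership rule were among the 6, so their values are a description. Slpi, a protease inhibitor outside the rules, had 499 CPM in Drug-NIHL and 1168 CPM in NIHL cells (0.427, 0.345 to 0.530). Retnlg had 4755 and 13719 CPM (0.347, 0.325 to 0.369), and Mmp9, the gelatinase, had 442 and 972 CPM (0.455, 0.361 to 0.576). Of these barcodes, 113 of 180 in the Drug-NIHL and 11 of 41 in the NIHL library held 100 or more specific granule UMIs, and the part of that difference in these values was not tested.

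The granule-poor barcodes, with 0 to 4 specific granule UMIs and under 100 azurophil UMIs, were 113 in the Drug-NIHL and 108 in the NIHL library. S100a8 plus S100a9 made up less than 10% of the UMIs in 67 of the 113 Drug-NIHL and 22 of the 108 NIHL barcodes, a limit chosen after the values were seen. Of these, 26 Drug-NIHL and 15 NIHL barcodes held 20 or more UMIs of another type's markers. Ly6g, which the rule did not use, had 2 UMIs in the Drug-NIHL and 3 in the NIHL barcodes of low S100 share, against 11 and 34 UMIs in those with a share of at least 10%.

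**Figure D5:**
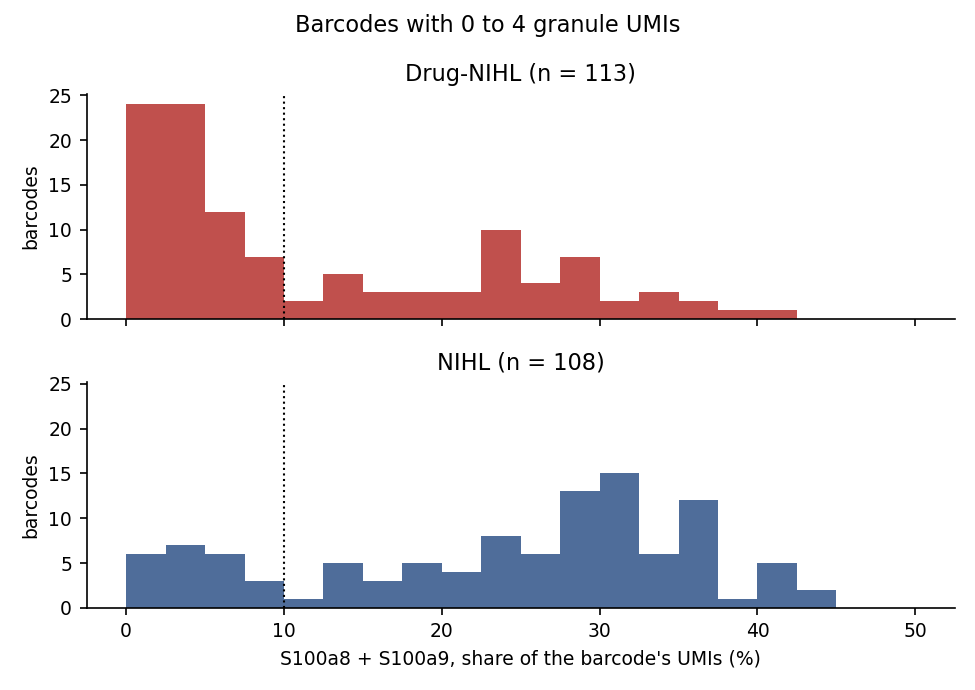
Histograms of S100a8 plus S100a9 as a share of each barcode's UMIs (x axis, percent, bins of 2.5) for granule-poor neutrophils, with the number of barcodes on the y axis. Left of the dotted line at 10% lie 67 of 113 Drug-NIHL barcodes (top) and 22 of 108 NIHL barcodes (bottom).

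The granule-poor barcodes with a share of at least 10% were 46 in the Drug-NIHL and 86 in the NIHL library. Of 774 genes, 122 (15.8%) were higher and 133 (17.2%) lower in Drug-NIHL cells, and the median log2 ratio was -0.01. Il1b had 3328 CPM in Drug-NIHL and 3252 CPM in NIHL cells, a ratio of 1.02 (0.832 to 1.25). Wfdc21 had a ratio of 0.955 (0.775 to 1.17) and Srgn, the granule proteoglycan serglycin, one of 1.01 (0.823 to 1.23). Cxcl2 was higher, with 280 UMIs (6608 CPM) in Drug-NIHL and 351 UMIs (3694 CPM) in NIHL cells, a ratio of 1.79 (1.52 to 2.10). After thinning to 500 UMIs, 60.9% of Drug-NIHL and 53.5% of NIHL cells had a Cxcl2 UMI, against 3.90% and 2.55% of other barcodes. Before thinning the shares were 69.6% and 70.9%, at median depths of 749.5 UMIs in Drug-NIHL and 1016.5 UMIs in NIHL cells.

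Of 37 interferon-response genes in the list, 10 could be measured in these cells. Of these 10, 5 were lower and 0 higher, beside 17.2% and 15.8% of all genes in this class. Ifitm1 had 472 CPM in Drug-NIHL and 905 CPM in NIHL cells (0.521, 0.304 to 0.856), Ifitm2 had 1015 and 1631 CPM (0.622, 0.433 to 0.877), and Ifitm3 had 944 and 1516 CPM (0.623, 0.427 to 0.890). Isg15, a ubiquitin-like modifier, and Slfn4, a schlafen, were also below 1/1.5, with intervals that include 1. In immature cells without azurophil-rich barcodes, Ifitm2 had a ratio of 0.623 (0.480 to 0.815) and Ifitm3 one of 0.678 (0.550 to 0.841), while 3 of 11 list members (27.3%) were lower, beside 25.7% of all genes in that class, and 1 was higher.

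Of 22 glycolysis and hypoxia genes in the list, 6 could be measured in the granule-poor cells with a high S100 share. Of these 6, 3 were lower and 0 higher, beside 17.2% and 15.8% of all 774 genes in this class. Slc16a3, a lactate exporter, had 496 CPM in Drug-NIHL and 937 CPM in NIHL cells (0.529, 0.312 to 0.859), and Aldoa, an aldolase, had 283 and 589 CPM (0.481, 0.234 to 0.907). All 11 mitochondrially encoded genes were higher there, with ratios of 2.06 to 2.43. Median mitochondrial shares were 6.89% in Drug-NIHL and 2.53% in NIHL cells of this class. Among all neutrophils the medians were 3.02% and 2.12%, and 6.40% and 4.70% among the other barcodes. The part of this difference in the values above was not tested.

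Histone deacetylase genes, which encode the enzymes that deacetylase inhibitors act on, were scarcely detected. Of 11 in the list, 4 could be compared, of which 0 were higher and 1 (25%) was lower in Drug-NIHL neutrophils. Of all genes, 9.83% were higher and 24.4% lower. Of 13 genes reported to rise with deacetylase inhibitors in other cells, 2 (15.4%) were higher and 1 (7.69%) was lower. Their median log2 ratio was 0.17, beside -0.22 for all genes.

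Other barcodes gave the surroundings of these values. At least 1 UMI of S100a8 or S100a9 was found in 5.16% of the other Drug-NIHL barcodes and 2.20% of the other NIHL barcodes. Lcn2 had 123 and 12.1 CPM there, in 2.00% and 1.02% of barcodes, and Ltf 131 and 24.2 CPM, in 1.19% and 0.387%. Of the azurophil genes, Elane had 20.6 and 6.26 CPM, Mpo 10.3 and 3.94, Prtn3 27.9 and 11.2, and Ctsg 12.2 and 3.78. All of these transcripts were thus higher outside neutrophils in the Drug-NIHL library, and for the azurophil genes this is opposite to their direction among neutrophils. The cells they came from were not identified. The 6 erythroid markers summed to 59618 CPM in the other Drug-NIHL barcodes and 54110 CPM in the other NIHL barcodes, and the 6 B lineage markers to 32.3 and 25.6 CPM, with no marker at 0. Markers of marrow and blood cells were thus detected in both libraries, and their part in the stage difference was not tested.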

How the data were processed

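Droplet single-cell RNA-seq was measured in 2 libraries, 1 per group. The values are raw UMI counts per gene and barcode for 32285 genes, as deposited by the authors. Per the file headers they were written by Cell Ranger 5.0.1, and per the submitters' processing notes Cell Ranger 5.0, STAR and Seurat 3.2.2 were used with mm10 (GRCm38). Neither source says that doublets were removed, and none were removed here outside the Scrublet alternative.

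Barcodes were chosen by the limits given above, UMIs were summed per library and class, and sums were compared as CPM (Python 3.11.15, scipy 1.17.1, scanpy 1.11.5, edgeR 4.0.16 for TMM factors). A gene was called higher or lower at a ratio of at least 1.5 in either direction, with 20 or more UMIs in the 2 sums, and log2 ratios used 0.5 added UMIs. Shares have exact Clopper-Pearson intervals and ratios exact conditional binomial intervals at 95%. With 1 library per group there is no test, and intervals cover counting error only. The ratio and interval code was tested on simulated data.

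Members of 21 gene lists could be named, and beyond them the 10 genes per direction whose interval lay furthest from 1, with at most 20% of the UMIs of the higher library in 1 barcode. Members, lists and limits were chosen with earlier results of these data known. Alternatives changed the membership limits, the stage limit, doublets, thinning, scaling and the UMI minimum, and a correction for free RNA is not reported here. Promoters are from RefSeq (GRCm38.p6), 250 bases before each start.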

Additional observations from a re-analysis of the deposited data

Results flagged for a closer look

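In the Drug-NIHL library, 29 barcodes had at least 10 UMIs of S100a8 plus S100a9 and none of the 7 further genes, so they were not counted as neutrophils, against 1 such barcode in the NIHL library. The 29 held 10 to 253 S100 UMIs (median 20), 19 had 3 or more Schwann cell UMIs, 22 had a UMI of Il1b and 21 one of Cxcl2.

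For 10 list genes outside the membership and stage rules, the ratio of Drug-NIHL over NIHL was at least 1.5 in one of the immature and mature classes and at least 1.5 times lower in the other, with neither interval including 1. Of the membership genes, S100a8 (1.76 and 0.483) and S100a9 (1.73 and 0.480) met the same limits, as a description. With 1 library per group the difference between stages was not tested, and the share of all genes that meet these limits was not counted. In immature cells the ratio was above 1 and in mature cells below it for Lcn2 (2.57 and 0.336), Ifitm6 (1.80 and 0.343), Wfdc21 (1.66 and 0.533), Mcemp1 (1.59 and 0.528), Itgam (2.12 and 0.186), Bst2 (2.04 and 0.190) and Clu (6.60 and 0.357). Without the azurophil-rich barcodes the immature ratio was 1.21 for Lcn2, 0.838 for Ifitm6, 1.14 for Wfdc21, 0.898 for Mcemp1, 1.16 for Itgam, 1.28 for Bst2 and 3.04 for Clu, so among these 7 only Clu stayed past 1.5, and Ifitm6 and Mcemp1 were below 1 in both classes. The order was opposite for Cd14 (0.523 and 1.94), Zeb2 (0.497 and 2.69) and Cd74 (0.293 and 11.4). Their immature ratios without the azurophil-rich barcodes are not given here.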

How the results depend on the processing

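Drug-NIHL had the larger immature share of neutrophils under all 15 alternatives, with ratios of 1.60 to 2.93 around 1.85. The ratio was 2.93 with at least 20 granule UMIs and 2.87 after thinning. The neutrophil share ratio was 1.20 to 1.70 over 12 alternatives, and 1.20 without barcodes holding 3 UMIs of another type. Counts of genes depended on the setting, from 173 to 3912 higher and from 682 to 5144 lower over 18 alternatives. Genes higher numbered 382 without Scrublet's doublets and 1523 with the mean of barcode CPM. Without 3 UMIs of another type, 213 were higher and 682 lower, and without 20 such UMIs 917 were lower. TMM scaling gave 1066 higher and 889 lower, no UMI minimum 3912 and 5144, and a minimum of 50 UMIs 173 and 690.

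Of the finite ratios recomputed for genes called higher or lower over all neutrophils, 14 turned to the other side of 1. Genes with ratios too near 1 to be called were left out of this count, even where they crossed 1. Elane and Mpo, with UMIs only in Drug-NIHL neutrophils once azurophil-rich barcodes were left out, had no finite ratio and are not counted. Ccl4 was 0.975 at 20 or more S100 UMIs, 0.493 at 50 or more, 0.574 with at least 2 of the 7 further genes and 0.604 at 1000 or more UMIs. Ccl3 was 0.611 at 50 or more S100 UMIs, 0.782 with 2 of the 7 genes and 0.916 at 1000 or more UMIs. Cxcl3 was 0.328 without 3 UMIs of another type, and Cxcr4 was 0.989 as a mean of barcode CPM. Without azurophil-rich barcodes the ratio was 1.44 for Ctsg (0.274 to 14.2), 53.5 for Prtn3, 4.22 for Nkg7, 2.22 for Plac8 and 5.35 for Ms4a3, and the azurophil median log2 ratio was 2.31. The ageing and tissue residence list had a median log2 ratio of 0.66, which was -0.26 at 50 or more S100 UMIs and -0.14 at 1000 or more UMIs. The causes were not tested. No paired analysis was possible because each group is 1 library.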
